A study of Mus musculus with 3 samples.

Results

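The cadherin superfamily outside the clustered protocadherins was described in open chromatin of sorted mouse cortical projection neurons. The genes were the RefSeq protein-coding genes of mm10 whose symbol is Cdh, Fat or Celsr followed by digits, or Pcdh followed directly by digits. The rule gave 42 of 21883 protein-coding genes placed on a chromosome. They comprised 5 classical type I cadherins, 13 type II cadherins, 5 other cadherins, 4 delta-1, 5 delta-2 and 3 other protocadherins, 4 Fat genes and 3 Celsr genes. Open chromatin was assayed by ATAC-seq, where an added transposase inserts adapters into accessible DNA, and each library came from 50000 sorted cells. Corticospinal motor neurons (CSMN), which project from the cortex to the spinal cord, were represented by 1 library. Callosal projection neurons (CPN), which connect the hemispheres, were represented by 2 libraries, CPN 1 and CPN 2, called biological replicates in the labels. The tissue was given as brain. For the mice, the age, strain and genotype, and the marking of cells for sorting, are unstated in the sources used here.

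Cadherins are calcium-dependent adhesion molecules whose outer domains bind cadherins on a neighbouring cell. Inside the cell, type I and type II cadherins bind catenins, which link them to actin, whereas most protocadherins and the Fat and Celsr proteins use other partners. In the cortex, different neurons express different combinations of type II cadherins and delta-protocadherins. Celsr proteins belong to the planar polarity pathway, and Celsr3 is required in mice for several forebrain axon tracts.

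The promoters printed here carry the findings at the starts of the genes. Cdh18 and Pcdh9 had the strongest peaks at a start, Cdh9 and Cdh12 were among the start regions that ranked higher in CSMN, and Cdh15 and Cdh23 had a start peak that the CSMN library lacked. Cdh9 and Cdh12 were added after their values were seen. Each sequence is RefSeq, build GRCm38.p6, written 5′ to 3′ along the gene, from 250 bases before the start to 50 bases after it. Capitals mark a GC box, GGGCGG on either strand, or an E-box, either CAGCTG or the palindrome CACGTG.
Cdh18, chr15:23036213-23036512, plus strand: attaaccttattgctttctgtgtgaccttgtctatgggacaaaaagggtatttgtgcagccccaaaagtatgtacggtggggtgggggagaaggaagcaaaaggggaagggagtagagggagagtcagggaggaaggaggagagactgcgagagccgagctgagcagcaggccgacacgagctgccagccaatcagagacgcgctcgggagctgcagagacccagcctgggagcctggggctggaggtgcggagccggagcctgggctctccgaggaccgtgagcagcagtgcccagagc
Pcdh9, chr14:93890630-93890929, minus strand: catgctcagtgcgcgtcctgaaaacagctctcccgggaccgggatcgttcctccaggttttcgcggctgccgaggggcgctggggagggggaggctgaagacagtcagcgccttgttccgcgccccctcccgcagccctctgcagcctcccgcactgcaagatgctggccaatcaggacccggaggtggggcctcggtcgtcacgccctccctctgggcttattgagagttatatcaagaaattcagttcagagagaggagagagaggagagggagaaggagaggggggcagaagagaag
Cdh9, chr15:16728665-16728964, plus strand: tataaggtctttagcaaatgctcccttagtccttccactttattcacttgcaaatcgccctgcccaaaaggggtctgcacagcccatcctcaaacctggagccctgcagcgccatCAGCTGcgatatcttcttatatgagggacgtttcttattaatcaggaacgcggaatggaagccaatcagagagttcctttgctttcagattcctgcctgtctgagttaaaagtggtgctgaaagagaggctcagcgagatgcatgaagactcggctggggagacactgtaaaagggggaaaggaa
Cdh12, chr15:21111202-21111501, plus strand: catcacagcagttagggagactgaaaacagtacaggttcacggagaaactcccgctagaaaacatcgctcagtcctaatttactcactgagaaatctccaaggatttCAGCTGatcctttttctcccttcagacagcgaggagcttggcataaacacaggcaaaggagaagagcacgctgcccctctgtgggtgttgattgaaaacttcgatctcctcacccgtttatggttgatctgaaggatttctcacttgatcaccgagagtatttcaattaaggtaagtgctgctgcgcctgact
Cdh15, chr8:122848124-122848423, plus strand: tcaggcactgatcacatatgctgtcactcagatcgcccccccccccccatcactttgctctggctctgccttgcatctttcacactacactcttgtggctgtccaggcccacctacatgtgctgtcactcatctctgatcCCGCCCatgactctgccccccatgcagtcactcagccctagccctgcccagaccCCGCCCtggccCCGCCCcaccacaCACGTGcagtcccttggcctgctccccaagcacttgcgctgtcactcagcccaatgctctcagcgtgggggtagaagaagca
Cdh23, chr10:60696441-60696740, minus strand: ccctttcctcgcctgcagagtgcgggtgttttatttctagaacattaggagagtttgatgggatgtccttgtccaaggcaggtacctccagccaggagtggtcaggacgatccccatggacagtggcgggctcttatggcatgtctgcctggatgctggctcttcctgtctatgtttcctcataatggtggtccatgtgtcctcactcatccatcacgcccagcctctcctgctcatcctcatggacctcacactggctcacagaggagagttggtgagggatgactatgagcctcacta
The Cdh15 promoter held 3 GC boxes and a CACGTG, the Cdh9 and Cdh12 promoters a CAGCTG each, and the other 3 none of these letters.

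The deposited lists held 98067 peaks in CSMN, 134018 in CPN 1 and 158779 in CPN 2, with no read totals, so the read depth behind a peak was unknown. The CSMN list was also weaker: 55.2% of its peaks reached a −log10 q of 5, against 72.4% in CPN 1 and 65.4% in CPN 2. Peaks were merged into 204313 regions, and a region was called CSMN-only when neither CPN list had a peak in it, or CPN-only when both CPN lists had one and the CSMN list did not. With 1 CSMN library no test between the cell types was possible, so the gap between CPN 1 and CPN 2 was the only measured spread. A missing peak means that a site did not pass the authors' threshold, not that it was closed. In sorted cells taken in bulk, fewer cells with an open site and a less open site in every cell cannot be told apart. Start-site peaks at marker genes did not separate the sorted types. Among the markers with a start in the promoter table, those of CSMN (Fezf2 and Bcl11b) and of upper-layer neurons (Cux1, Cux2 and Lhx2) had one in all 3 libraries, and so did the interneuron markers Gad1, Gad2 and Dlx1. Of the excitatory markers, the start of Neurod6 had a peak in all 3 libraries and that of Slc17a7 in CPN 2 alone. The start of the microglial Cx3cr1 had one in CPN 1 alone. Starts of the glial genes Gfap and Mog had none in any library, while those of Aldh1l1, Olig2 and the endothelial Cldn5 had one in all 3. The 4 CSMN markers had 37 peaks in CSMN, 64 in CPN 1 and 75 in CPN 2, and of these Ldb2 had 1 CSMN-only region against 14 CPN-only and Crym 0 against 6, opposite to the direction of the sort label. The 4 CPN and upper-layer markers had 62 peaks in CSMN, 103 in CPN 1 and 112 in CPN 2. Over each other marker list, summed peaks in gene windows ran from 7 for microglia to 24 for oligodendrocytes among non-neuronal types in CSMN, from 16 to 37 in CPN 1 and from 16 to 33 in CPN 2. The part of such cells in the results was not tested.

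Every one of the 42 genes had a peak in at least 1 library within its body or 10 kb either side, a window used for all counts by gene. The windows held 491 CSMN peaks, 707 CPN 1 peaks and 780 CPN 2 peaks. Per 100000 peaks of the list, this was 501 in CSMN, 528 in CPN 1 and 491 in CPN 2, so the CSMN value lay between the CPN libraries. This scale gives each peak more weight in the shorter CSMN list, so equal counts of peaks come out above both in CSMN. The same is true of strong peaks. The subfamilies differed in where CSMN stood on this scale. In raw peaks CSMN had fewer than either CPN library in every subfamily but the other protocadherins. Those had 37 in CSMN, 28 in CPN 1 and 33 in CPN 2. Type II cadherins had 138 peaks per 100000 in CSMN, 109 in CPN 1 and 101 in CPN 2, above both. Classical type I cadherins had 79.5 in CSMN, 107 in CPN 1 and 95.1 in CPN 2, and the other cadherins, which include Cdh13 and Cdh23, had 64.2, 114 and 118 in the same order, so both groups were below both. Delta-1 protocadherins had 47.9 in CSMN, 47.8 in CPN 1 and 39.0 in CPN 2, delta-2 protocadherins 29.6, 26.9 and 23.3, and the other protocadherins, which include Pcdh15, 37.7, 20.9 and 20.8, all above both. Fat genes had 73.4 in CSMN, 65.7 in CPN 1 and 63.6 in CPN 2, a sum above both that rested on Fat3, since Fat1, Fat2 and Fat4 each stood below both. Celsr genes stood below both, narrowly, with 30.6 in CSMN, 35.8 in CPN 1 and 30.9 in CPN 2. Per 100000 strong peaks, those with a −log10 q of 5 or more, Celsr genes stood above both with 40.7 in CSMN, 35.0 in CPN 1 and 29.8 in CPN 2, and delta-1 protocadherins stood between the CPN libraries with 55.4, 55.6 and 53.0, while the other subfamilies kept their side.

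**Figure D1:**
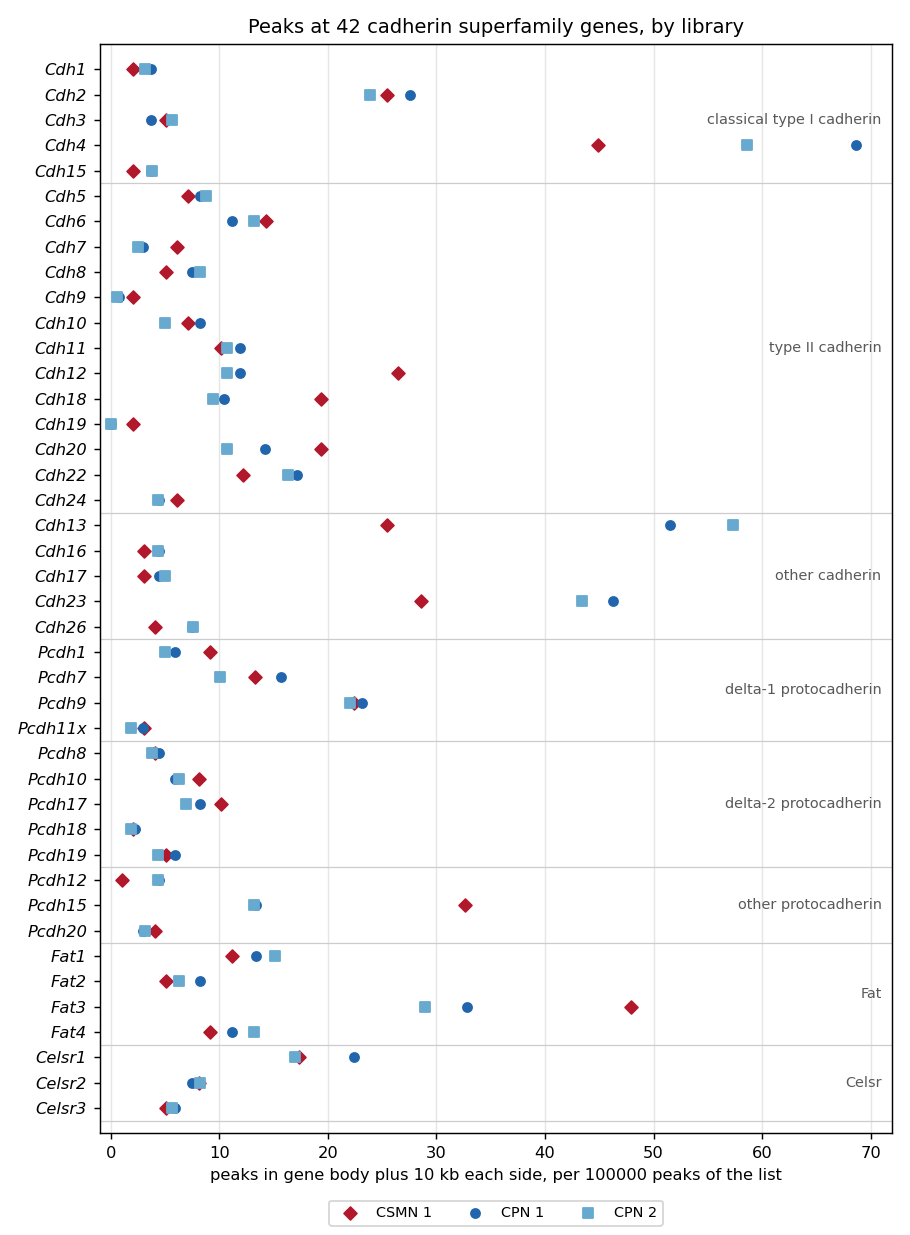
Peaks of each gene and library (x axis: peaks in the gene body plus 10 kb each side, per 100000 peaks of the list; rows: the 42 genes by subfamily; diamonds: CSMN, circles: CPN 1, squares: CPN 2). Cdh12, Cdh18, Pcdh15 and Fat3 have the CSMN point to the right of both CPN points, and Cdh4, Cdh13 and Cdh23 have it to the left.

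By gene, CSMN lay above both CPN libraries at 15 of the 42 genes (35.7%, against 44% of all 18790 genes with a peak), below both at 17 (40.5%, against 33.2%) and between them at 10. The balance of the family was therefore close to that of all genes, with a few points more below both. The family's windows were longer, however, with a median of 141 kb against 37.2 kb for all genes. Among windows of at least 200 kb the tilt turned. There CSMN lay above both at 6 of 14 family genes (42.9%, against 40.4% of 1133 genes). It lay below both at 4 (28.6%, against 47.1%). Counting strong peaks alone, per 100000 strong peaks of the list, CSMN stood above both at 21 of the 42 genes (50%, against 52.6% of all genes with such a peak) and below both at 17 (40.5%, against 31.5%). The genes farthest above were Pcdh15, with 32.6 peaks per 100000 in CSMN, 13.4 in CPN 1 and 13.2 in CPN 2, and Cdh12, with 26.5 in CSMN, 11.9 in CPN 1 and 10.7 in CPN 2. Fat3 had 47.9 in CSMN, 32.8 in CPN 1 and 29.0 in CPN 2, Cdh18 had 19.4, 10.4 and 9.4 in that order, and Cdh20 had 19.4, 14.2 and 10.7. At these 5 genes the gap from CSMN to the nearest CPN library exceeded the gap between the CPN libraries. The genes farthest below were Cdh13, with 25.5 in CSMN, 51.5 in CPN 1 and 57.3 in CPN 2, Cdh23, with 28.6, 46.3 and 43.5, and Cdh4, with 44.9, 68.6 and 58.6. Cdh22 had 12.2 in CSMN, 17.2 in CPN 1 and 16.4 in CPN 2, and Cdh26 had 4.1, 7.5 and 7.6.

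The windows held 1047 merged regions, none of them shared between 2 of the genes, and 45 also overlapped the body of another protein-coding gene. Of the 1047 regions, 309 had a peak in all 3 libraries, 116 were CSMN-only and 182 CPN-only, while 185 were found in CPN 1 alone, 204 in CPN 2 alone, 22 in CSMN and CPN 1 and 29 in CSMN and CPN 2. CSMN-only regions thus made up 38.9% of the regions of a single cell type (Wilson 95% interval 33.6 to 44.6, counting error only), against 32.5% (32.0 to 33.0) over the windows of all protein-coding genes and 37.7% (37.3 to 38.0) over all regions of the genome. The share changed with the list length and the strength limit, at 58.6% with lists of equal length and 12.3% with lists cut to strong peaks. The CSMN-only regions were the weaker class: 9.48% reached a −log10 q of 5, whereas 64.3% of CPN-only regions did so in both CPN libraries. Over all protein-coding windows these shares were 11.0% and 59.6%. The classes were not defined alike, since a CPN-only region needed a peak in both CPN libraries and a CSMN-only region in 1 library. Their strengths therefore do not compare the cell types on equal terms. CSMN-only regions were also narrow, with a median width of 160.5 bp, against 366 bp for the CSMN peaks of regions in all 3 libraries. They lay far from starts: of the 92 in genes with a known start, 0 had the summit within 1 kb of it, against 2 of 100 CPN-only regions and 24 of 196 regions in all 3 libraries. Regions found in 1 CPN library alone had the same traits. Their median width was 175 bp for CPN 1 alone and 138 bp for CPN 2 alone. In genes with a known start, 1 of 90 and 1 of 98 had the summit within 1 kb of it.

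**Figure D2:**
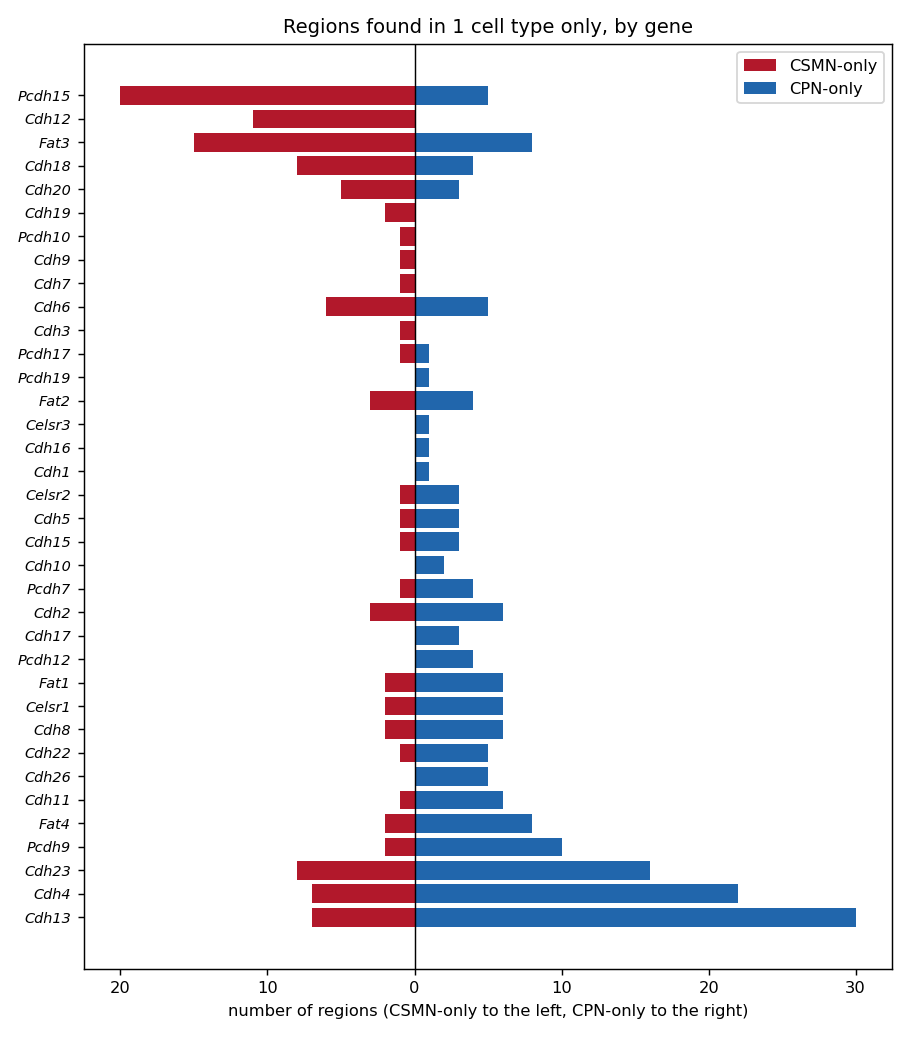
Regions found in 1 cell type only, by gene (bars to the left: CSMN-only regions, bars to the right: CPN-only regions, both as counts; genes with neither are left out). Pcdh15 has 20 CSMN-only regions against 5 CPN-only, and Cdh13 has 7 against 30.

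Among windows of at least 500 kb, 5 of 7 genes of the family had more peaks per 100000 in CSMN than in either CPN library, against 50.4% of 244 such genes in the genome. These were Pcdh15, Cdh12, Cdh18, Fat3 and, by a narrow margin, Pcdh11x. Cdh13 was below both CPN libraries and Pcdh9 between them.

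A gene was called when it had at least 5 regions of a single cell type and at least 2-fold more of one class than of the other. Of the 20 genes with 5 such regions, 3 were called for CSMN-only (15%, against 11.7% of the 2579 genes of the genome that qualified) and 13 for CPN-only (65%, against 62.5%), and 4 for neither. Both shares were near the genome's. Calls for CSMN-only were more frequent in long windows of the genome as well. Among windows of at least 500 kb, 3 of 6 qualifying family genes were called for CSMN-only (50%, against 25.3% of 225 genes). There 2 were called for CPN-only (33.3%, against 44.9%). The 3 genes called for CSMN-only were Pcdh15, Cdh12 and Cdh18. The 13 called for CPN-only were Cdh2, Cdh4, Cdh8, Cdh11, Cdh13, Cdh22, Cdh23, Cdh26, Celsr1, Fat1, Fat4, Pcdh7 and Pcdh9. Cdh6, Cdh20, Fat2 and Fat3 had 5 regions and were called for neither, and the remaining 22 genes had fewer than 5. Cdh18 with 8 against 4, Cdh2 with 3 against 6 and Cdh23 with 8 against 16 stood exactly at the 2-fold limit, and Fat3 with 15 against 8 stood just short of it. Cutting the lists to equal length, 98067 peaks, removes CPN peaks alone, the weakest of each list. In CPN 2, where 103866 peaks reached a −log10 q of 5, this took out some strong peaks too. Lists of equal length gave 7 genes for CSMN-only and 3 for CPN-only of 20 (genome 34.8% and 26.4%). Cutting every list to strong peaks before merging gave 0 and 12 of 15 (genome 2.97% and 94.2%). Counts given by gene as with lists of equal length or with strong peaks refer to these versions and set CSMN-only against CPN-only regions. The genes called for CPN-only in all 3 versions were Pcdh9, Cdh8 and Cdh11, and no gene was called for CSMN-only in all 3. The share of all genes called in all 3 was not computed. With 2.97% of the genome called for CSMN-only among strong peaks, few genes could pass all 3 that way. With lists of equal length the other genes called for CPN-only fell under 2-fold or turned, among them Fat4 and Pcdh7 at 3 against 4, Fat1 at 3 against 3 and Cdh26 at 2 against 3.

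Among the type II cadherins, adhesion molecules with distinct expression across brain regions and cell types, Cdh12 and Cdh18 of chromosome 15 were the ones called for CSMN-only. Cdh12 (chr15:20448878-21598421) had 26 peaks in CSMN, 16 in CPN 1 and 17 in CPN 2, although the CSMN list was the shortest. It had 11 CSMN-only and 0 CPN-only regions, with 11 regions in all 3 libraries. All 11 CSMN-only regions were weak, with a −log10 q from 1.64 to 3.55, and with peaks of −log10 q of at least 5 Cdh12 had 2 CSMN-only regions against 1. Cdh18 (chr15:22548898-23477491) had 19 peaks in CSMN, 14 in CPN 1 and 15 in CPN 2, and its 8 CSMN-only regions included 4 with a −log10 q over 5. The strongest of them, chr15:23096683-23096843, lay inside the gene 60310 bp from the annotated start with a fold of 3.30, where fold is the authors' enrichment at the summit over the background of that library. The strongest of its 4 CPN-only regions, chr15:23212138-23212418, had folds of 7.98 in CPN 1 and 6.72 in CPN 2. With strong peaks Cdh18 stood at 4 against 4. Leaving out either CPN library also ended the call, at 11 against 7 without CPN 1 and 11 against 6 without CPN 2. Cdh6 had 6 CSMN-only and 5 CPN-only regions, Cdh9 had 1 and 0, and Cdh10 had 0 and 2.

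Other type II cadherins, Cdh8, Cdh11 and Cdh22, were called for CPN-only. Cdh8 (chr8:99024471-99417666) had 5 peaks in CSMN, 10 in CPN 1 and 13 in CPN 2, and 2 CSMN-only against 6 CPN-only regions. All 6 CPN-only regions of Cdh8 had a −log10 q of at least 7.06 in both CPN libraries, and the strongest, chr8:99348683-99348917, 67674 bp from the start and inside the gene, had folds of 7.29 in CPN 1 and 8.62 in CPN 2. Its counts stood at 2 against 6 with lists of equal length and at 0 against 6 with strong peaks. Cdh11 (chr8:102632095-102785493), first described in bone-forming cells, had 10 peaks in CSMN, 16 in CPN 1 and 17 in CPN 2, with 1 CSMN-only and 6 CPN-only regions. It stood at 1 against 4 with lists of equal length and at 0 against 7 with strong peaks. Cdh22 had 12 peaks in CSMN, 23 in CPN 1 and 26 in CPN 2, and 1 CSMN-only against 5 CPN-only regions, but 2 against 3 with lists of equal length. Cdh20 had 19 peaks in CSMN, 19 in CPN 1 and 17 in CPN 2 and 5 CSMN-only against 3 CPN-only regions, and with strong peaks it turned to 1 against 4. Cdh19, a cadherin of neural crest and glial cells, had 2 peaks in CSMN, both CSMN-only, and was the only one of the 42 genes listed with 0 peaks in both CPN libraries. Cdh5, the cadherin of endothelial junctions, had 7 peaks in CSMN, 11 in CPN 1 and 14 in CPN 2.

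Cdh13 (chr8:118140017-119324929) encodes T-cadherin, which is held in the membrane by a lipid anchor and lacks the catenin-binding tail. It had 25 peaks in CSMN, 69 in CPN 1 and 91 in CPN 2, so both CPN libraries exceeded CSMN by more than they differed from each other. It had 7 CSMN-only and 30 CPN-only regions, 15 regions in all 3 libraries, 23 in CPN 1 alone and 43 in CPN 2 alone. The CPN-only regions were spread along the gene, with 7 of them in the third block of 100 kb from the lower-coordinate end and no other block holding more than 4. The strongest, chr8:118376860-118377134, had folds of 4.79 in CPN 1 and 5.49 in CPN 2, and the strongest CSMN-only region, chr8:118363647-118363802, had a fold of 2.60. The balance was 11 against 20 with lists of equal length and 1 against 29 with strong peaks, CPN-only regions being the more numerous each time but under 2-fold at equal length. Without Cdh13 the CSMN-only share of the remaining genes was 41.8%, and without Cdh13, Cdh4 and Cdh23 it was 45.2%, against 38.9% with all.

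**Figure D3:**
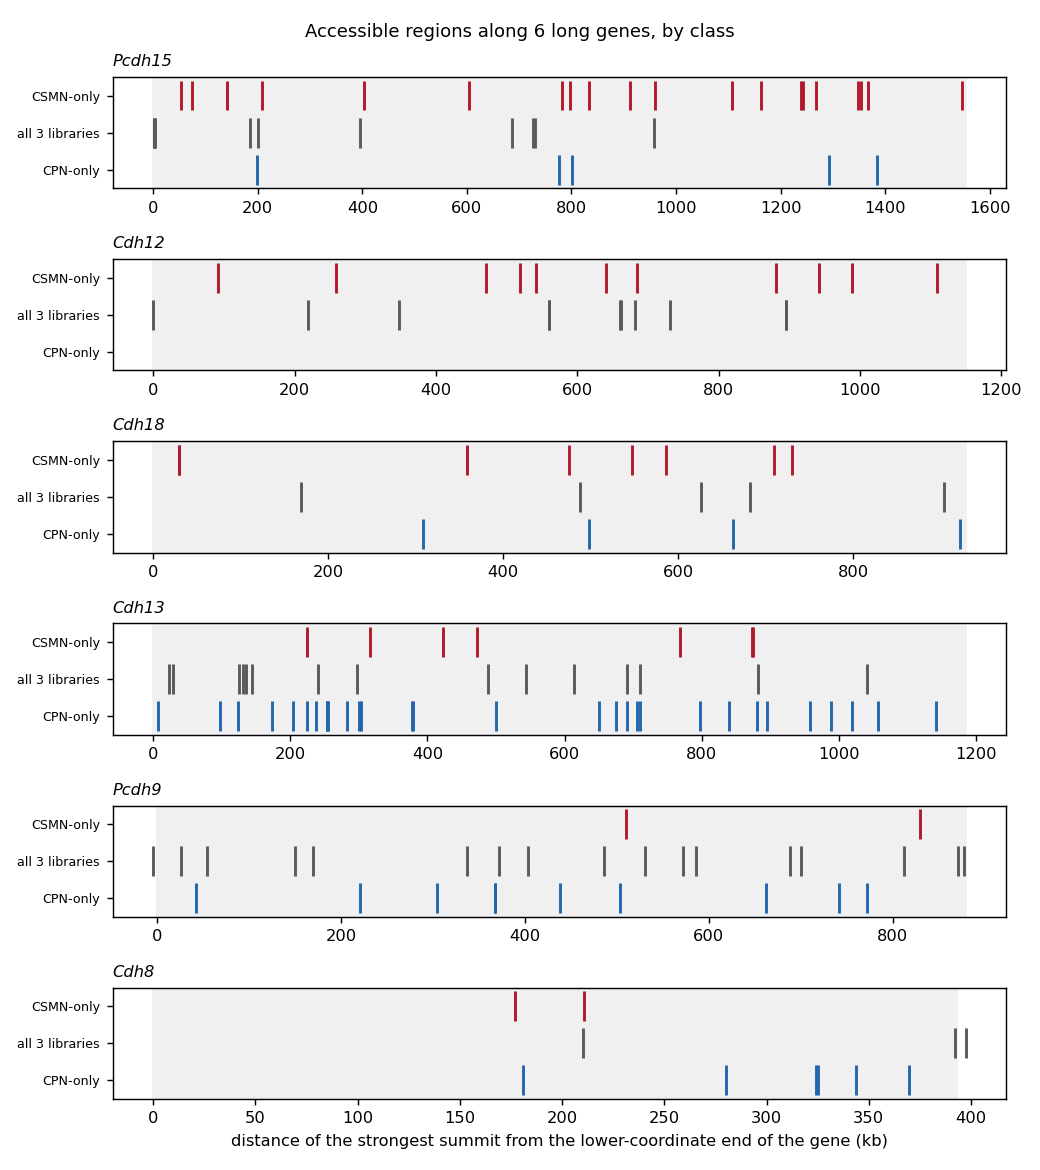
Position of regions along 6 long genes (x axis: distance in kb from the lower-coordinate end of the gene; grey: gene body; ticks: strongest summit of each region, in rows for CSMN-only regions, regions in all 3 libraries and CPN-only regions). Cdh12 has an empty CPN-only row, while the CPN-only row of Cdh13 holds 30 regions and that of Pcdh9 holds 10, some of them too close to tell apart.

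Pcdh15 and Cdh23, whose proteins join to form the tip link of inner ear hair cells, fell on opposite sides. Pcdh15 (chr10:73096277-74649831) had 32 peaks in CSMN, 18 in CPN 1 and 21 in CPN 2, with 20 CSMN-only, 5 CPN-only and 10 shared regions. Its strongest CSMN-only region, chr10:74203776-74203915, had the highest −log10 q of any CSMN-only region in the family, 20.2, with a fold of 4.95. It was 140 bp wide. The strongest CPN-only region of Pcdh15, chr10:74387732-74387997, had folds of 8.33 in CPN 1 and 7.74 in CPN 2, and with strong peaks the gene stood at 5 against 5. Cdh23 (chr10:60302748-60696513) had 28 peaks in CSMN, 62 in CPN 1 and 69 in CPN 2, with 8 CSMN-only and 16 CPN-only regions. The balance turned to 12 against 6 with lists of equal length and was 1 against 12 with strong peaks. The strongest CPN-only region of Cdh23, chr10:60405604-60406323, also lay in Vsir, an immune checkpoint gene inside Cdh23, and had folds of 5.81 in CPN 1 and 5.46 in CPN 2.

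The type I cadherins are the classical catenin-binding molecules, and the neural members among them, Cdh2 (N-cadherin) and Cdh4 (R-cadherin), held most of their regions. Cdh4 (chr2:179442423-179899377) had the most regions of the family, 132, with 44 peaks in CSMN, 92 in CPN 1 and 93 in CPN 2. It had 7 CSMN-only and 22 CPN-only regions, including chr2:179875284-179875685, which had the highest −log10 q of the family's CPN-only regions, 39.6 in the weaker library, and folds of 6.25 in CPN 1 and 6.64 in CPN 2. With lists of equal length Cdh4 stood at 13 against 12, and with strong peaks at 0 against 21. Cdh2 (chromosome 18) had 25 peaks in CSMN, 37 in CPN 1 and 38 in CPN 2 and 3 CSMN-only against 6 CPN-only regions, which turned to 8 against 5 with lists of equal length and was 3 against 11 with strong peaks. Cdh1 (E-cadherin), Cdh3 (P-cadherin) and Cdh15 (M-cadherin), known from epithelia and muscle, each had at most 5 CSMN peaks. Cdh26, among the other cadherins, had 4 peaks in CSMN, 10 in CPN 1 and 12 in CPN 2 and 0 CSMN-only against 5 CPN-only regions.

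The delta-protocadherins bind their own kind across contacts and take part in axon and synapse formation. Pcdh9 (chr14:93013700-93892834), a delta-1 protocadherin, had 22 peaks in CSMN, 31 in CPN 1 and 35 in CPN 2. Per 100000 peaks this was 22.4 in CSMN, 23.1 in CPN 1 and 22.0 in CPN 2, between the CPN libraries, yet it had 2 CSMN-only against 10 CPN-only regions. All 10 CPN-only regions had a −log10 q of at least 5.91 in both CPN libraries, and the strongest, chr14:93516675-93516958, had folds of 8.67 in CPN 1 and 7.31 in CPN 2. Strong peaks numbered 10 in CSMN, 26 in CPN 1 and 31 in CPN 2. The balance was 2 against 10 with lists of equal length and 0 against 16 with strong peaks. Pcdh7 had 13 peaks in CSMN, 21 in CPN 1 and 16 in CPN 2 and 1 CSMN-only against 4 CPN-only regions. This call rested on CPN 1, since without it Pcdh7 stood at 5 against 5, and with CPN 2 set against the other libraries it had 1 region of CPN 2 alone against 4 shared by CSMN and CPN 1. Its CSMN-only region, chr5:57788843-57789058, was among the stronger ones with a −log10 q of 8.53. The delta-2 genes Pcdh8, Pcdh10, Pcdh17, Pcdh18 and Pcdh19 had most of their regions in common, with 23 of 39 regions in all 3 libraries, 2 CSMN-only and 2 CPN-only. Pcdh12, a protocadherin of vascular endothelium, had 1 peak in CSMN, 6 in CPN 1 and 7 in CPN 2, but its window overlaps Rnf14. The X-linked Pcdh11x had 3 peaks in CSMN, 4 in CPN 1 and 3 in CPN 2 in a window of 640 kb, the lowest density of the family in CSMN, and in both CPN libraries the lowest after Cdh19, at 4.7 peaks per Mb in CSMN, 6.2 in CPN 1 and 4.7 in CPN 2.

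Fat proteins are very large cadherins, and Fat4 is the receptor of Dchs1. Fat3 (chr9:15910189-16502681), which shapes the dendrites of amacrine cells in the mouse retina, had 47 peaks in CSMN, 44 in CPN 1 and 46 in CPN 2 and 15 CSMN-only against 8 CPN-only regions. With strong peaks it turned to 2 against 10. In Fat3 a CPN-only and a CSMN-only region, each the strongest of its class, lay within 1 kb of each other. The CPN-only region, chr9:16256642-16257090, had folds of 8.48 in CPN 1 and 5.84 in CPN 2, and the CSMN-only region, chr9:16257418-16257901, had a fold of 2.95. Fat4 had 9 peaks in CSMN, 15 in CPN 1 and 21 in CPN 2 and 2 CSMN-only against 8 CPN-only regions. One of the CPN-only regions of Fat4, chr3:38918901-38919430, had folds of 8.44 in CPN 1 and 8.77 in CPN 2 and a −log10 q of 35.7 in the weaker library. Fat1 had 11 peaks in CSMN, 18 in CPN 1 and 24 in CPN 2, with 2 CSMN-only against 6 CPN-only regions, and Fat2, known from cerebellar granule cells, had 5, 11 and 10 peaks in the same order. Among the planar polarity genes, Celsr1 had 17 peaks in CSMN, 30 in CPN 1 and 27 in CPN 2 and 2 CSMN-only against 6 CPN-only regions, with 3 against 3 at equal list length. Celsr2 had 7 of 11 regions and Celsr3 5 of 9 regions in all 3 libraries.

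Where all 3 libraries had a peak, the strength of the peak was compared by rank, since folds are each library's own. Each fold was given its percentile among the 62435 regions of the genome with a peak in all 3 lists. The 309 such regions of the family were of less than average strength, with a median percentile of 39.4 in CSMN, 39.5 in CPN 1 and 37.6 in CPN 2, against 53.1, 53.3 and 53.3 over all protein-coding windows. In 32 of the 309 regions (10.4%, against 7.73% of all shared regions) CSMN ranked at least 20 points above both CPN libraries, and in 33 (10.7%, against 8.55%) at least 20 points below both. The median gap between CPN 1 and CPN 2 was 5.75 points. Among genes with several such regions, Pcdh9 had 5 shared regions lower in CSMN and 0 higher, and Cdh13 had 7 lower and 1 higher. Cdh12 had 4 higher and 1 lower, Fat3 had 5 higher and 2 lower, and Fat4 had 4 higher and 0 lower although its regions of a single cell type were mostly CPN-only. Other genes were divided, with 2 higher and 2 lower at both Pcdh15 and Cdh20. Over all protein-coding windows the shares were 6.30% higher and 7.54% lower.

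**Figure D4:**
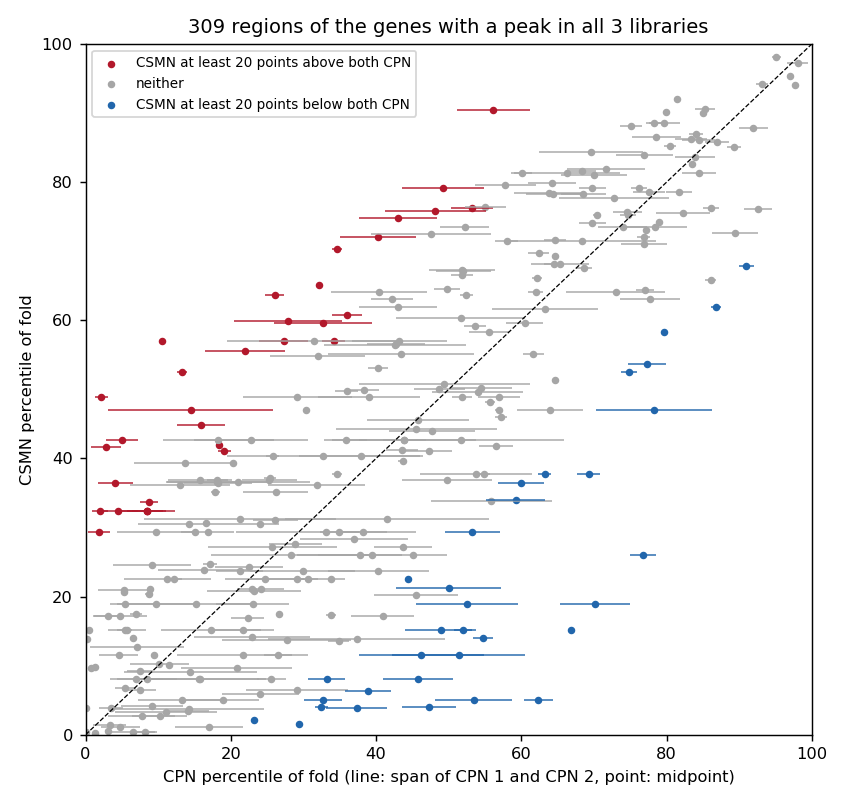
The 309 regions of the family with a peak in all 3 libraries (y axis: CSMN percentile of fold; x axis: CPN percentile of fold, the line spanning CPN 1 and CPN 2 with the point at its midpoint; percentiles are among all regions with a peak in all 3 lists). The 32 red regions lie at least 20 points above both CPN values and the 33 blue ones at least 20 points below both.

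The shared regions with the greatest shifts toward CPN were in Cdh17 and Pcdh9. The Cdh17 region, chr4:11803865-11804273, stood at percentile 5.10 in CSMN, 60.4 in CPN 1 and 64.4 in CPN 2. Cdh17 is a cadherin of liver and intestine. In Pcdh9, chr14:93543611-93543902 stood at 15.2 in CSMN, 66.5 in CPN 1 and 67.1 in CPN 2, and chr14:93182632-93183349 at 26.04, 78.5 and 75.0. The greatest shifts toward CSMN were at Cdh12, where chr15:21008282-21008848 stood at 57.0 in CSMN, 10.6 in CPN 1 and 10.4 in CPN 2, and chr15:20796994-20797257 at 49.0 in CSMN, 1.26 in CPN 1 and 3.09 in CPN 2. These regions were picked for the size of their shift, so their order of the libraries is no separate support for the regions of a single cell type. At Cdh12 another shared region, chr15:21179596-21180571, went the other way, at 47.0 in CSMN, 86.2 in CPN 1 and 70.3 in CPN 2.

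Starts were open in most of the genes in every library. A start was in the promoter table for 28 of the 42 genes, and 23 of them had a peak within 1 kb of it in all 3 libraries (genome 65%), 2 in both CPN libraries and not in CSMN (genome 2.56%), 0 in CSMN alone (genome 1.13%) and 2 in none (genome 27.6%). The remaining gene, Cdh26, had a weak start peak in CPN 2 alone, with a fold of 2.38. The strongest start peaks were at Pcdh9, with folds of 14.8 in CSMN, 20.1 in CPN 1 and 19.2 in CPN 2, and Cdh18, with 13.8 in CSMN, 21.0 in CPN 1 and 27.4 in CPN 2, and within each list at least 97.8% of all peaks had a lower fold. Thus Cdh18, with 28 regions in a window of 949 kb, had a start among the most accessible sites of every library. The start peaks missing from CSMN were those of Cdh23, with folds of 5.27 in CPN 1 and 5.89 in CPN 2, and of Cdh15, with 4.77 in CPN 1 and 4.29 in CPN 2. The start of Cdh9 was the only one with a higher fold in CSMN than in either CPN list, 9.63 in CSMN, 7.63 in CPN 1 and 6.57 in CPN 2, and its region ranked at percentile 90.5 in CSMN, 61.1 in CPN 1 and 51.1 in CPN 2. The start region of Cdh12 stood at 76.3 in CSMN, 56.2 in CPN 1 and 50.3 in CPN 2. A weaker region of Pcdh7, chr5:57717093-57717626, with its strongest summit 748 bp from the start, stood at 33.7 in CSMN, 9.94 in CPN 1 and 7.47 in CPN 2.

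Fat1 and Fat2 had no peak within 1 kb of the start in the table in any library. At both genes the table's start lies within the annotated gene. That is also true of Cdh12, Cdh18 and Pcdh15, which had a start peak in all 3 libraries. Shared regions lay elsewhere in Fat1, including chr8:44937892-44938753 with folds of 7.85 in CSMN, 11.8 in CPN 1 and 11.6 in CPN 2. Of the 14 genes without a start in the table, 10 had a peak in all 3 libraries within 1 kb of either end of the gene, Cdh13 and Cdh19 had none there in any library, and Cdh17 and Pcdh12 had one in both CPN libraries and not in CSMN. At these ends Cdh2 had folds of 6.56 in CSMN, 8.61 in CPN 1 and 7.79 in CPN 2, and Pcdh11x had 6.42, 10.1 and 11.0 in that order.

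**Figure D5:**
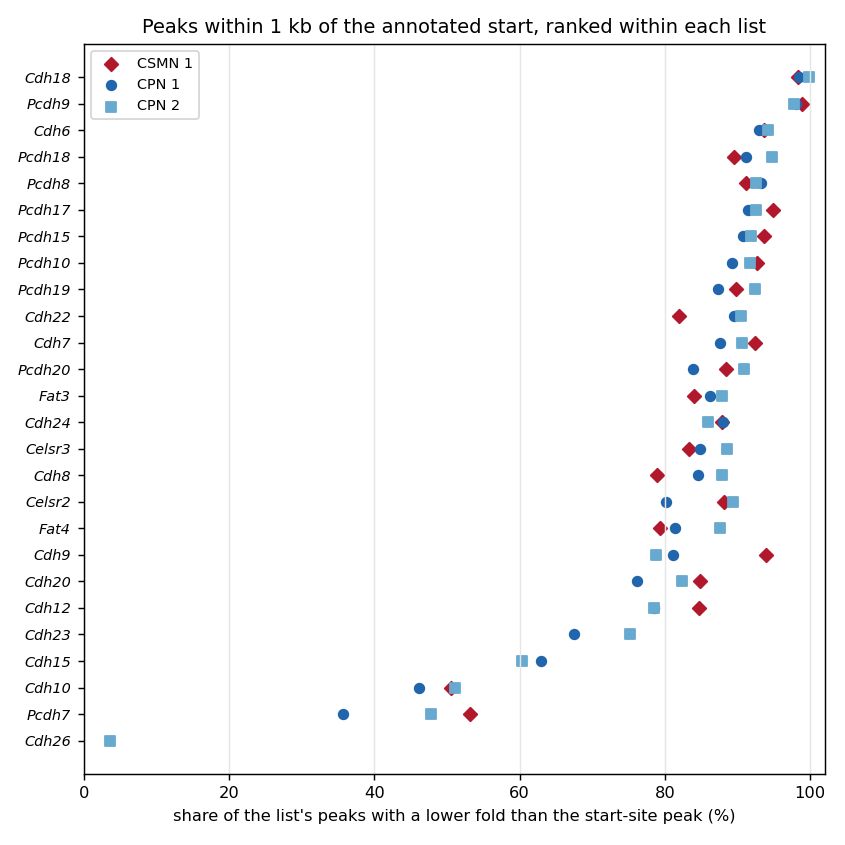
Peaks within 1 kb of the annotated start for the 26 genes with one in any library (x axis: percent of the list's peaks with a lower fold than the start-site peak; diamonds: CSMN, circles: CPN 1, squares: CPN 2; genes ordered by mean CPN fold). Cdh18 and Pcdh9 stand at the top in all 3 lists, Cdh9 and several other genes, such as Cdh20, Cdh12 and Pcdh7, have the CSMN point to the right of both CPN points, and Cdh15 and Cdh23 have no CSMN point.

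The promoter sequences differed along with the start peaks. The 26 promoters of the table with a start peak in all 3 libraries had a median of 18 CpG in 300 bases (range 2 to 40), and the 5 without had a median of 4 (range 2 to 7). These 26 came from 23 genes, since Cdh7 and Pcdh9 have several starts in the table, and so are not all separate. Over all 31 promoters of the family, from 28 genes, the median was 14, against 13 over 21229 protein-coding promoters. Motifs were searched on both strands. The GC box GGGCGG was present in 10 of the 31 (32.3%, against 46.2% of protein-coding promoters) and the E-box CAGCTG in 3 (9.68%, against 15.6%), at Pcdh15, Cdh9 and Cdh12. The E-box CAGATG was in 3 (9.68%, against 14.6%) and the E-box CACGTG in 1 (3.23%, against 7.83%). The AP-1 motif TGACTCA was in 0 (4.66% of protein-coding promoters), as was its looser form with any middle base, TGANTCA, which includes it (7.0%). A match is a run of letters and not a bound site.

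Genes that work with the cadherins were called in shares near those of the genome. Over 3 lists, 8 of 11 qualifying genes were called for CPN-only and 0 for CSMN-only, beside 62.5% and 11.7% of the genome. Among 10 catenins and junction partners, 5 had at least 5 regions of a single cell type and 4 were called for CPN-only. Ctnna2, the neural alpha-catenin, had 5 CSMN-only and 19 CPN-only regions, Ctnnd2, the neural delta-catenin, had 13 and 31, Vcl, which encodes vinculin, had 0 and 7, and Pkp4 had 4 and 9. Of 13 partners of Fat and Celsr, 5 qualified and 3 were called for CPN-only, namely Prickle2 with 0 and 10, Prickle1 with 1 and 7 and Dchs2, a relative of the Fat4 ligand Dchs1, with 2 and 5. Of 7 genes of the WAVE complex, an actin regulator that some delta-protocadherins recruit, Cyfip2 alone qualified and was called for CPN-only with 2 and 5. With lists of equal length Prickle2 at 0 and 6 and Prickle1 at 1 and 5 kept the call, and the other called genes lost it. Ctnnd2 turned to 16 and 15, and Ctnna2 stood at 9 and 16, Pkp4 at 5 and 6, Vcl at 0 and 4, under the 5 regions needed, and both Dchs2 and Cyfip2 at 3 and 3.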

How the data were processed

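ATAC-seq peak lists of 1 CSMN library and 2 CPN libraries from mouse brain were used. The build mm10 and the tools MACS2 2.2.7.1, bedtools 2.29.2 and BWA 0.7.17 come from the submitters' processing notes, without roles. No source used here states read filters or a shift of reads. The authors deposited, per peak, the enrichment at its summit as a ratio (fold), a −log10 p and a −log10 q, a score of 10 times the −log10 q cut to a whole number (true of over 99.9% of peaks), and the summit's offset in bp, in a list whose peak names carry 1 library name.

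Peaks overlapping by at least 1 bp were merged with Python 3.11.15, pandas 2.3.3 and numpy 2.4.6. Intervals are Wilson 95% intervals (scipy 1.17.1), covering counting error only. A recount by gene in bedtools 2.31.1 gave a difference of 0 peaks, and the merging was tested on simulated peaks. Gene positions and promoters are RefSeq, GRCm38.p6 (mm10), and all 42 genes matched by symbol. Every gene was counted. Genes named are those called, the 8 with the most regions, up to 5 on each side farthest outside both CPN libraries and those with a missing start peak, with the strongest region of a class; further genes were named by role. Alternatives were equal list lengths, a −log10 q minimum, stricter overlap, other windows, distances and limits, each CPN library left out and each CPN library as the odd one. The genes and lists were chosen with earlier results of these data known.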

Additional observations from a re-analysis of the deposited data

How the results depend on the processing

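No paired analysis was possible because the groups share only 1 replicate number and no test was made. With lists of equal length the CPN-only regions numbered 115 and the CSMN-only share turned to 58.6%, with 7 genes called for CSMN-only and 3 for CPN-only; the share turned at Cdh23 (66.7%), Cdh2 (61.5%) and Cdh4 (52.0%). This setting removes CPN peaks alone. With a −log10 q of at least 5, CSMN-only regions numbered 25, the share was 12.3% and 0 genes were called for CSMN-only. A stricter overlap of merged peaks and gene bodies without flanks each left 10 genes called for CPN-only: Cdh23 and Cdh26 lost the call in both, Cdh2 with the stricter overlap and Cdh22 without flanks. The stricter overlap added Fat3 to the genes called for CSMN-only, 4 in all. Small counts moved most, with Cdh26 at 2 CPN-only regions without flanks and Pcdh9 at 4 CSMN-only regions with the stricter overlap. Summits inside the window changed no call. Apart from equal lengths and the −log10 q minimum, shares of called genes over the genome were not computed for the settings of this section.

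Without 1 CPN library the CSMN-only share was 26.3% to 28.3% and CPN-only regions, resting on a single library, numbered 367 to 386, with 2 genes called for CSMN-only, Cdh12 and Pcdh15. Shared regions ranked higher in CSMN then numbered 45 to 53. A 10-point limit gave 81 higher and 57 lower, a 30-point limit 8 and 10. Asking for 10 regions left 5 genes called for CPN-only. Without Cdh13, Cdh4 and Cdh23, a choice made after the values were seen, the share was 45.2%.

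With CPN 1 as the odd library, its own 185 regions stood against 29 of the remaining pair, a share of 86.4%, with 11 genes called for the odd library and 0 the other way. With CPN 2 there were 204 against 22, 90.3%, and 12 against 1. The CPN libraries thus differed in many regions as well, but each pair of CSMN with 1 CPN library shared few regions of its own. Without genome shares for these calls, their counts are not read as particular to the family. By gene, the share of the odd library with CPN 1 was 96.4% at Cdh23, 80.0% at Pcdh9, Cdh2 and Fat1, 40% at Cdh18, 100% at Celsr1, Cdh22, Cdh8 and Cdh11, 66.7% at Cdh26, 90.2% at Cdh4, 85.7% at Pcdh7 and 95.8% at Cdh13. With CPN 2 it was 96.8% at Cdh23 and Cdh4, 100% at Pcdh9, Celsr1, Cdh22, Fat4, Fat1, Cdh8 and Cdh11, 80.0% at Cdh2, 75.0% at Cdh26 and 97.7% at Cdh13. At Cdh12 it was 60% with CPN 1 (3 against 2) and 80% with CPN 2 (4 against 1), where Cdh12 was called for the odd library. Pcdh15 had 60% with CPN 1 (3 against 2) and 100% with CPN 2 (2 against 0). Fat4 had 50% with CPN 1, and with CPN 2 Cdh18 had 50% and Pcdh7 20%. Some of these shares rest on very few regions. With CPN 1 they were 1 against 0 at Cdh8, 2 against 0 at Cdh11 and 2 against 1 at Cdh26. With CPN 2 they were 2 against 0 at Cdh8, 1 against 0 at Cdh11 and 3 against 1 at Cdh26. Peak lists carry no read depth, and whether a site missing from a list was closed or below the authors' threshold was not tested.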
